A study of Homo sapiens with 6 samples.

Results

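The 40 genes described here encode the machinery of the lysosome and the pump that acidifies it, together with the transcription factors that govern both. They are 4 lysosomal membrane proteins, 15 hydrolases (7 proteases, 7 glycosidases and 1 sulfatase), 2 lipid-handling proteins, 14 V-ATPase proteins (5 of the V0 sector, 8 of the V1 sector and 1 accessory subunit), the 3 MiT/TFE factors TFEB, TFE3 and MITF, and the MiT/TFE targets GPNMB and SQSTM1. They were taken by name from a matrix of 60671 annotated genes by a list of names that uses no measured value, though the list was drawn up with earlier results of these data known. All 40 passed the filter on low values (at least 1 TPM in at least 3 of 6 samples), which 13861 genes passed.

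To ask how the core of a breast tumor differs from its edge, RNA was sequenced from the tumor core (TC, n = 3) and the tumor margin (TM, n = 3) of xenografts. Both groups derived from the same unmodified (WT) MDA-MB-231 cells, a single human triple-negative breast cancer line labelled as an epithelial cell, which had been placed orthotopically with Matrigel into the fourth mammary fat pads of young female NOD/SCID/IL2Rγ-null (NSG) mice. These mice lack T, B and NK cells but keep macrophages, fibroblasts, muscle and fat, and no step of the methods parted mouse from human reads. The study counts its replicates as mice, and whether a TC and a TM sample came from the same mouse is not stated in the sources used here.

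Lysosomes degrade proteins, glycans and lipids delivered by endocytosis and autophagy. Their hydrolases work only in the acid lumen made by the V-ATPase, in which the cytosolic V1 sector splits ATP and the membrane-bound V0 sector carries protons across. TFEB, TFE3 and MITF bind a short palindrome in the promoters of many lysosomal genes, and when nutrients are plentiful the kinase complex mTORC1, sitting on the lysosomal surface, holds TFEB and TFE3 in the cytosol.

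That palindrome, the CLEAR element, is built on the E-box CACGTG and in a stricter form reads TCACGTGA. Both read the same on either strand, and the stricter form contains the E-box. RefSeq promoters on GRCh38.p14, running from 250 bases before to 50 bases after the start of transcription, were at hand for 28 of the 40 members. CACGTG occurred in 9 of these 28 promoters (32.1%), against 2396 of 27305 promoters of all genes (8.77%). TCACGTGA occurred in 6 of 28 (21.4%) against 321 of 27305 (1.18%), and with a further G before it and C after it in 3 of 28 (10.7%) against 115 of 27305 (0.421%). The 3 were ATP6V1G1, GAA and MCOLN1. The plan named CACGTG and this longest form, the latter as the CLEAR element, and TCACGTGA was used in addition. The motif was not particular to the members. In 52 promoters of lysosomal genes outside the 40, CACGTG occurred in 13 (25.0%), TCACGTGA in 5 (9.62%) and the longest form in 3 (5.77%). The 6 members with TCACGTGA were spread over the classes, with 2 V-ATPase subunits (ATP6V0D1 and ATP6V1G1), a protease (CTSA), a glycosidase (GAA), a membrane glycoprotein (LAMP1) and an ion channel (MCOLN1).

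The element in these 6 promoters is shown because TFEB, TFE3 and MITF are known to bind it. The other 22 promoters at hand did not hold it. The windows are 30 bases long, run 5′ to 3′ on the strand of the gene, and have TCACGTGA in capitals. They lie at chr16:67481199-67481228 (ATP6V0D1, − strand), chr9:114587699-114587728 (ATP6V1G1, + strand), chr20:45891298-45891327 (CTSA, + strand), chr17:80101493-80101522 (GAA, + strand), chr13:113297199-113297228 (LAMP1, + strand) and chr19:7522571-7522600 (MCOLN1, + strand). The element began 60, 59, 26, 77, 29 and 42 bases before the RefSeq start, in that order. GAA, LAMP1 and MCOLN1 each held 2 copies, of which the one farther from the start is shown. In MCOLN1 the longest form lay in the copy that is not shown.
ATP6V0D1: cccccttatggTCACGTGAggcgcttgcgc
ATP6V1G1: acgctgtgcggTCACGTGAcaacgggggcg
CTSA: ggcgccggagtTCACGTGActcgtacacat
GAA: gggaggccgcgTCACGTGAcccaccgcggc
LAMP1: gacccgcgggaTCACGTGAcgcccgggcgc
MCOLN1: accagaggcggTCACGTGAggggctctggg

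Values are given as TPM, a length-corrected transcript level whose total was 1000000 in 5 samples and 994381 in TM replicate 3, so levels can be compared between genes. Depth is unknown with TPM. Annotated genes above 0 TPM numbered about 21060 to 21940 in TC and 22680 to 23220 in TM, without overlap. The part of depth in this was not tested. A difference is the TC mean less the TM mean of log2(TPM + 1), from a limma fit of all 13861 genes with Benjamini-Hochberg adjustment. In bulk samples of this kind, fewer cells of a type and less RNA per cell cannot be told apart. Among all tested genes, 19 were called at an adjusted p under 0.05, and 67.0% were lower in TC, with a median log2 difference of -0.14. The samples carried the MDA-MB-231 markers VIM, CD44, AXL, KRT8, KRT18 and MSN at a summed 5608 to 7130 TPM, while ESR1, PGR and CDH1 reached at most 0.36 TPM each. Markers of skeletal muscle summed to 196 and 485 TPM in TM replicates 1 and 2 and to 4.10 to 9.0 TPM in the other samples. Markers of fibroblasts summed to 476 and 1004 TPM in the same 2 samples and to 65.7 to 224 TPM in the others.

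The lysosomal genes as a group differed little between core and margin. None of the 40 was called at an adjusted p under 0.05, a rule that 0.137% of all tested genes passed. Their median log2 difference was -0.04, the range was -0.92 to 0.32, and 35 of 40 (87.5%) were below 0.3 in size, as were 60.6% of all tested genes. These shares were not matched for level, on which the size of a log2(TPM + 1) difference depends. Only ATP6V0A1 had an unadjusted p under 0.05, and it was lower in TC, where 14.2% of all tested genes were lower by the same rule. By the same rule 0 members were higher in TC, against 1.93% of all tested genes. The values of TC lay below those of TM without overlap for ATP6V0A1, SGSH, GAA and TFE3, 4 of 40 members against 18.9% of all tested genes. They lay above TM without overlap for SQSTM1, 1 of 40 members against 3.28% of all tested genes.

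The direction of such small differences depended on how the samples were scaled. On the deposited scale 16 members were higher and 24 lower in TC. After median-of-ratios rescaling, which moved the median of all tested genes from -0.14 to 0.049, the split was 33 higher and 7 lower. After quantile normalization (median of all tested genes 0.014) it was 24 higher and 16 lower, and with the trend over GC content and transcript length removed it was 20 and 20. Relative to the median of all tested genes the median member lay 0.096 higher on the deposited scale, 0.10 higher after median-of-ratios rescaling and 0.048 higher after quantile normalization. Without TM replicate 1 this offset was -0.003.

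**Figure D1:**
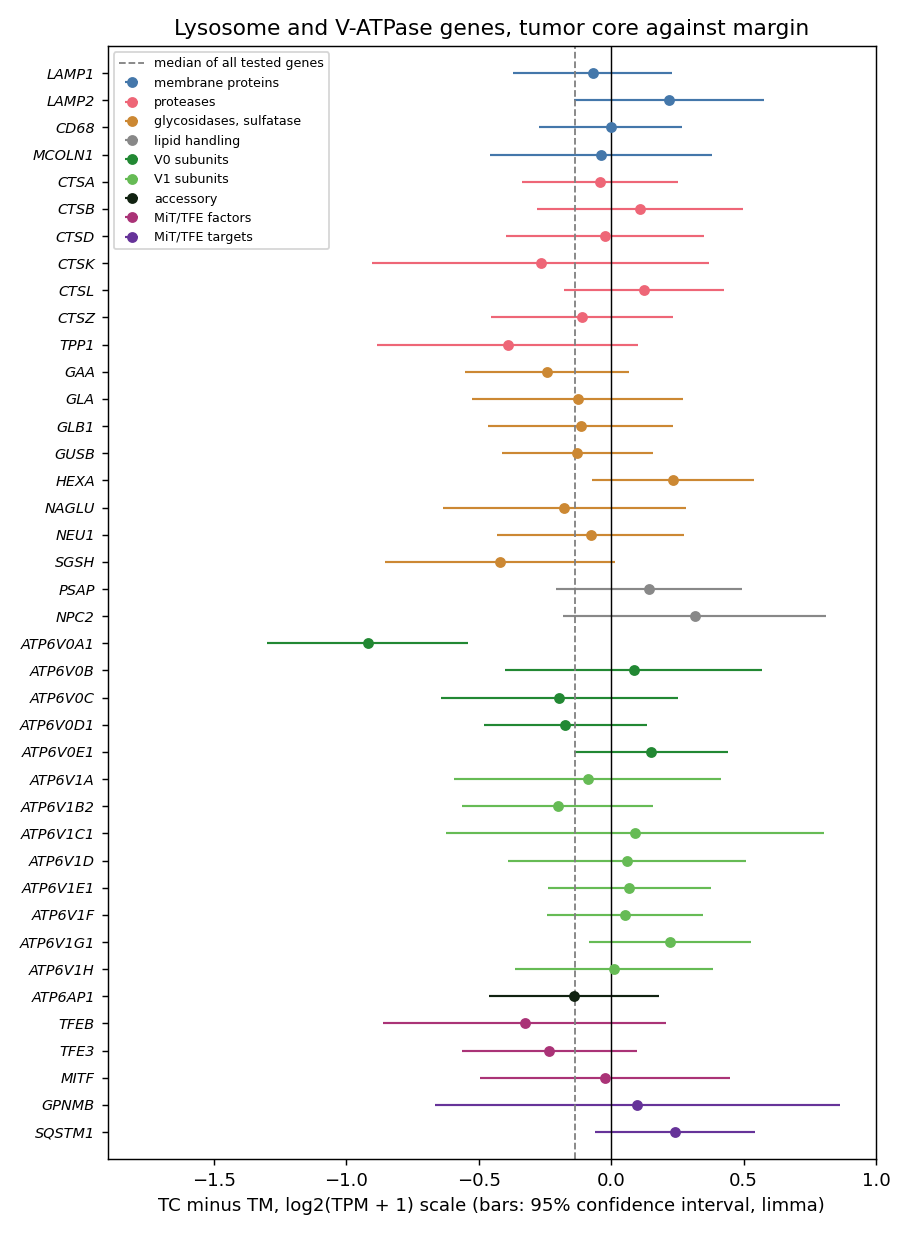
Difference between TC and TM for each of the 40 genes on the log2(TPM + 1) scale, colored by class, with 95% confidence intervals from limma (n = 3 and 3). The dashed line marks the median of all tested genes at -0.14, and ATP6V0A1 at -0.92 is the member whose interval, -1.30 to -0.54, does not reach 0.

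The levels of the members spanned from 0.93 TPM, for the collagen-degrading protease CTSK in TC replicate 2, to 2303 TPM, for the saposin precursor PSAP in the same sample. All members together summed to 5466, 6347 and 5480.2 TPM in TC replicates 1 to 3 and to 5328, 5506 and 5573 TPM in TM replicates 1 to 3. These ranges overlap. CTSK, TFEB, MITF and GPNMB stayed below 6 TPM in each sample, and every other member was above 9 TPM in each sample.

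**Figure D2:**
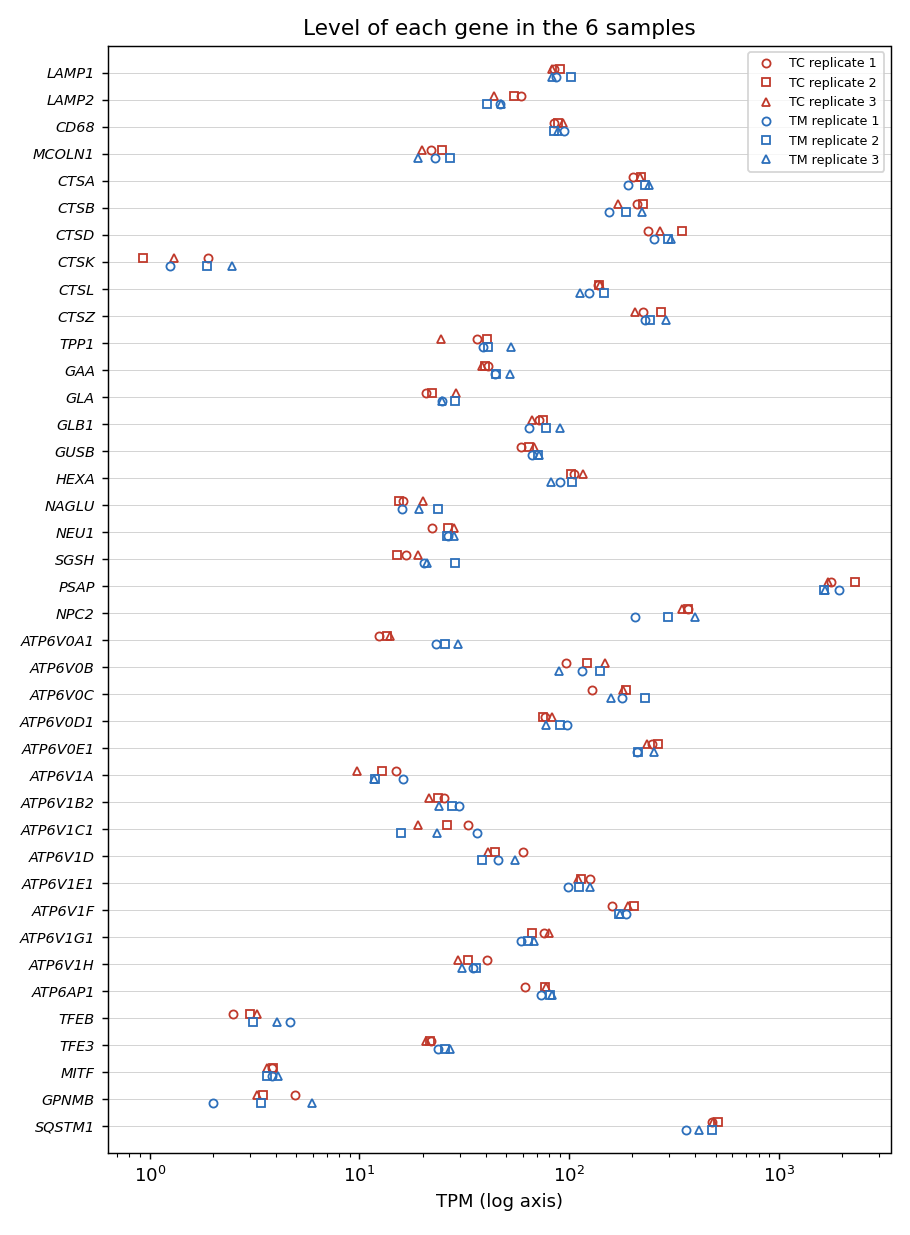
TPM of the 40 genes in the 6 samples, 1 row per gene on a log axis, with TC in red and TM in blue and the replicate given by the symbol. The red and blue points intermingle in 35 rows, and the rows of ATP6V0A1, SGSH, GAA, TFE3 and SQSTM1 keep the groups apart.

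The membrane proteins set the baseline. LAMP1, the heavily glycosylated protein that lines the inner face of the lysosomal membrane, stood at 84.2, 90.8 and 82.4 TPM in TC replicates 1 to 3 and at 86.8, 102 and 82.5 TPM in TM replicates 1 to 3. The groups overlapped, and the log2 difference was -0.07 (SE 0.13, limma adjusted p = 0.848). LAMP2, its partner, which also serves chaperone-mediated autophagy, stood at 58.8, 54.8 and 43.8 TPM in TC and at 46.7, 40.4 and 47.2 TPM in TM. Replicates 1 and 2 of TC were the highest of the 6 samples, replicate 3 of TC lay among the TM values, and the log2 difference was 0.22 (SE 0.16, limma adjusted p = 0.565). MCOLN1, the lysosomal calcium channel, ranged from 18.9 to 27.1 TPM with a log2 difference of -0.04.

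CD68, a lysosomal membrane glycoprotein best known as a macrophage marker, was listed at 84.9, 88.3 and 93.5 TPM in TC and at 94.2, 84.8 and 88.0 TPM in TM. The groups covered the same range, and the difference of -0.002 had a 95% confidence interval of -0.27 to 0.27. The 15 macrophage markers examined beside it summed to 12.8, 13.4 and 17.8 TPM in TC and to 17.9, 32.6 and 15.7 TPM in TM. Of these, C1QA, C1QB, C1QC and TYROBP were listed at 0 in all samples and the leukocyte marker PTPRC was at 0.03 to 0.30 TPM. The sum came mainly from ADGRE1 (7.92 to 10.5 TPM) and CSF1R (1.99 to 3.0 TPM in TC and 3.10 to 9.12 TPM in TM, log2 difference -0.80), with AIF1 reaching 5.14 TPM, LYZ 3.99 TPM and CYBB 2.79 TPM, all 3 in TM replicate 2. Human-gene TPM can miss mouse RNA, and the part of host macrophages in the CD68 level was not tested.

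Among the hydrolases, 3 of 15 were higher and 12 lower in TC, with a median log2 difference of -0.12, close to that of all tested genes, and this split turned to 11 higher and 4 lower after median-of-ratios rescaling. None was called. The proteases were led in level by CTSD, an aspartic protease, at 236 to 346 TPM, followed by CTSZ (207 to 289 TPM), CTSA (191 to 241 TPM), CTSB (155 to 226 TPM) and CTSL (112 to 146 TPM). The log2 differences of these 5 ran from -0.11 for CTSZ to 0.12 for CTSL, and their groups overlapped. TPP1, a tripeptidyl peptidase, had the most negative value of the proteases, with TC at 36.5, 40.6 and 24.6 TPM and TM at 38.9, 40.9 and 52.7 TPM. TC replicate 3 was the lowest and TM replicate 3 the highest of the 6, the other 4 lay within 36.5 to 40.9 TPM, and the log2 difference was -0.39 (SE 0.22, limma adjusted p = 0.435). CTSK ranged from 0.93 to 2.48 TPM, and of 4 osteoclast markers 3 (OCSTAMP, DCSTAMP and CALCR) were listed at 0 in every sample, while the fourth, ACP5, was at 0.16 to 1.59 TPM in TC and at 0.56 to 4.70 TPM in TM, with a log2 difference of -0.80.

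SGSH, a sulfamidase that takes part in the breakdown of heparan sulfate (chromosome 17, 80206716 to 80220923, − strand, GRCh38), stood at 16.8, 15.2 and 19.1 TPM in TC and at 20.2, 28.5 and 21.1 TPM in TM. Every TC value was below every TM value, but the gap between TC replicate 3 and TM replicate 1 was narrow. The log2 difference was -0.42 (SE 0.19), with an unadjusted p of 0.0559 and a limma adjusted p of 0.326. NAGLU, a glycosidase of the same pathway, had a log2 difference of -0.18 with overlapping groups (15.4 to 23.8 TPM over all samples).

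GAA, the acid glucosidase that degrades lysosomal glycogen (chromosome 17, 80101556 to 80119879, + strand, GRCh38), stood at 41.2, 39.5 and 38.2 TPM in TC and at 44.1, 44.9 and 52.5 TPM in TM. The TC values were close together below the TM values, of which replicate 3 was the highest. The log2 difference was -0.24 (SE 0.14, limma adjusted p = 0.441), and it ranged from -0.40 to -0.04 over the 16 alternative settings. The remaining glycosidases had log2 differences from -0.13 for GUSB to 0.23 for HEXA. HEXA, which encodes a chain of the enzyme that degrades ganglioside GM2, was the one glycosidase with the higher mean in TC (108 ± 7.13 against 91.9 ± 10.7 TPM, SD, n = 3 and 3), and the groups overlapped.

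Both lipid-handling genes had higher means in TC. PSAP, whose product is cut into the saposins that present sphingolipids to hydrolases, was the most abundant member, at 1776, 2303 and 1723 TPM in TC and 1924, 1637 and 1661 TPM in TM. Its log2 difference of 0.14 had an interval of -0.21 to 0.50. NPC2, which hands cholesterol to NPC1, stood at 368, 369 and 344 TPM in TC and at 206, 296 and 397 TPM in TM. The TC values were close together and the TM values lay on both sides of them, so that the most positive difference of the 40, 0.32 (SE 0.22, limma adjusted p = 0.546), was within the spread between replicates.

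Among the V-ATPase genes 1 subunit stood apart. Summed over the 14 genes, V-ATPase RNA amounted to 1158 to 1265 TPM in TC and to 1203.5 to 1257 TPM in TM, a ratio of the means of 0.9995. The mean log2 level of the 14 genes, which weighs each gene alike, did not overlap. It was 5.893 to 5.95 in TC and 5.979 to 6.041 in TM. Without ATP6V0A1 the ranges overlapped, at 6.046 to 6.115 in TC and 6.059 to 6.152 in TM. Apart from ATP6V0A1, each of the 13 other genes had a log2 difference below 0.3 in size, 8 higher and 5 lower in TC, and overlapping groups. ATP6V0A1, which encodes the a1 isoform of subunit a, the large V0 subunit that forms the path of the protons and directs the pump to particular membranes, was lower in TC on every scale tried.

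ATP6V0A1 (chromosome 17, 42458844 to 42522611, + strand, GRCh38) stood at 12.4, 13.5 and 13.9 TPM in TC replicates 1 to 3 and at 23.1, 25.5 and 29.6 TPM in TM replicates 1 to 3. The 2 groups were far apart compared with the spread within each, with means of 13.3 ± 0.814 and 26.1 ± 3.25 TPM (SD, n = 3 and 3). The log2 difference was -0.92 (SE 0.17, 95% confidence interval -1.30 to -0.54), with an unadjusted p of 0.000479. After Benjamini-Hochberg adjustment over the 13861 genes limma gave 0.0813, so the gene was not called. Over the 16 alternative settings the difference ran from -1.10 to -0.72 and the adjusted p from 0.0647 to 0.292.

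Subunit a is made by 4 genes, of which the members include 1. Each V0 sector holds a single subunit a, so a given pump carries 1 of the isoforms. The other isoforms were therefore taken from a list of 68 further lysosomal genes, chosen with earlier results of these data known. TCIRG1, the a3 isoform known from osteoclasts and from lysosomes, stood at 20.1, 25.3 and 16.4 TPM in TC and at 33.7, 43.3 and 62.9 TPM in TM. The groups were apart, TM replicate 3 was the highest, and the log2 difference was -1.12 (SE 0.25, limma adjusted p = 0.0926). ATP6V0A2, the a2 isoform known from the Golgi and endosomes, stood at 10.9, 9.26 and 8.97 TPM in TC and at 16.3, 13.6 and 15.7 TPM in TM. Again each TC value was below each TM value, and the log2 difference was -0.59 (SE 0.18, limma adjusted p = 0.163). ATP6V0A4, the a4 isoform of kidney, was at 0.15 to 0.23 TPM in TC and at 0.30 to 0.44 TPM in TM, too low to be tested. Among all tested genes 67.0% were lower in TC, and 18.9% had TC below TM without overlap. TCIRG1 and ATP6V0A2 had the smallest p of the 58 tested genes of that list.

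The 3 tested isoforms were lower in TC after median-of-ratios rescaling, quantile normalization and removal of the GC and length trend as well. Summed, the 4 isoforms reached 43.5, 48.2 and 39.5 TPM in TC and 73.5, 82.8 and 108.5 TPM in TM, with a mean 2.02 times higher in TM (88.3 ± 18.1 against 43.8 ± 4.34 TPM, SD). By share of this sum the groups overlapped. ATP6V0A1 made up 28.0% to 35.3% of the sum in TC and 27.3% to 31.5% in TM, and TCIRG1 41.4% to 52.4% in TC and 45.8% to 58.0% in TM.

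The partners of subunit a in V0 gave no such separation. ATP6V0D1, the d subunit that couples V0 to the stalk of V1, stood at 76.3, 74.8 and 83.1 TPM in TC and at 97.2, 90.5 and 77.4 TPM in TM, with TC replicate 3 above TM replicate 3. Its log2 difference was -0.17 (SE 0.13, limma adjusted p = 0.598). ATP6V0B and ATP6V0C, which build the rotating proteolipid ring, ranged from 89.3 to 149 TPM and from 128 to 231 TPM over all samples, with log2 differences of 0.08 and -0.20. ATP6V0E1, a small membrane subunit, ranged from 209.6 to 266 TPM, with a difference of 0.15. ATP6AP1, the accessory subunit needed for assembly of the pump, ranged from 61.5 to 82.8 TPM, with a difference of -0.14.

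Set against ATP6V0D1 in the same sample, a ratio that a scaling factor for the sample cannot move, ATP6V0A1 amounted to 16.2, 18.1 and 16.8 TPM per 100 TPM in TC and to 23.8, 28.2 and 38.2 per 100 TPM in TM. On the same scale TCIRG1 came to 26.4, 33.8 and 19.7 in TC against 34.7, 47.8 and 81.3 in TM, and ATP6V0A2 to 14.3, 12.4 and 10.8 in TC against 16.8, 14.99 and 20.3 in TM. Each of the 3 ratios was lower in every TC sample than in any TM sample, narrowly so for TCIRG1 and ATP6V0A2. These ratios were formed after the levels had been seen and are given without a test and without a share over all genes. ATP6V0D1 was the only denominator used, and the separation depends on that choice. Beside ATP6V0C, ATP6V0A2 stood at 10.9 with 128 TPM in TC replicate 1 and at 13.6 with 231 TPM in TM replicate 2. A ratio of ATP6V0A2 to ATP6V0C would therefore overlap between the groups.

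**Figure D3:**
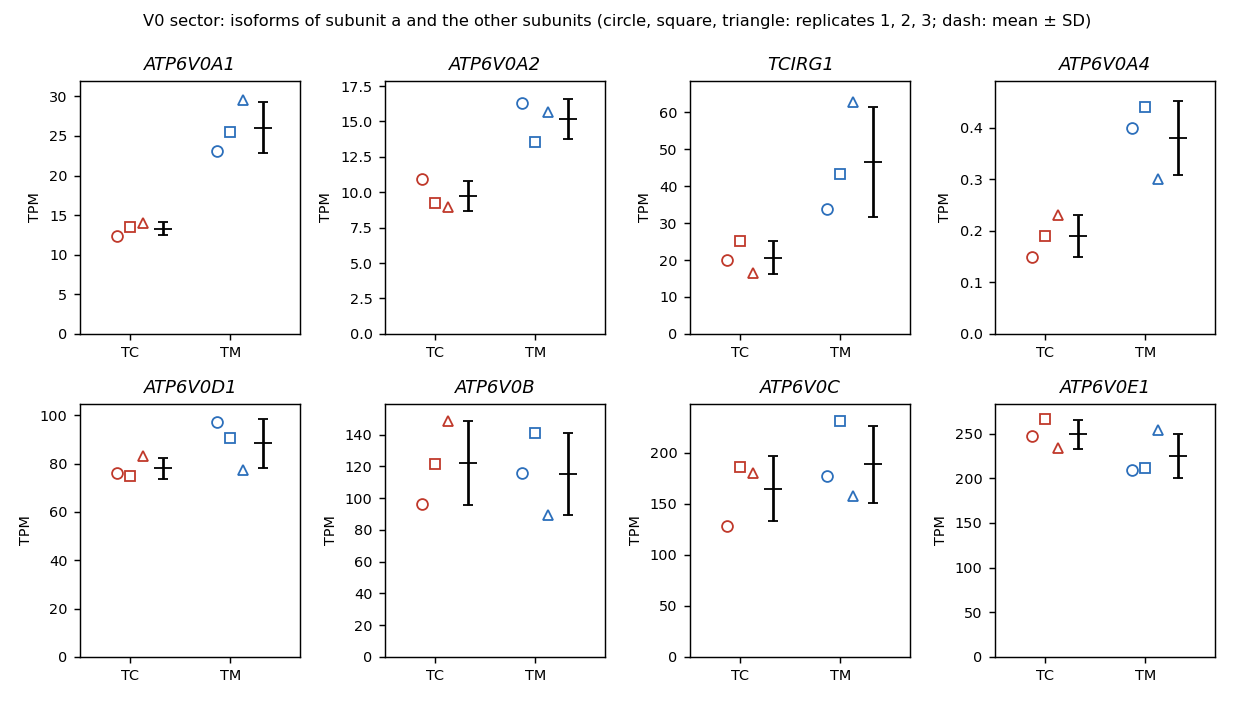
TPM of the subunit a isoforms (upper row: ATP6V0A1, ATP6V0A2, TCIRG1, ATP6V0A4) and of the other V0 subunits (lower row: ATP6V0D1, ATP6V0B, ATP6V0C, ATP6V0E1) in TC (red) and TM (blue), each axis starting at 0, with points for the samples and a dash with bars for the mean ± SD (n = 3). In the upper row the TC and TM points do not overlap, as for ATP6V0A1 with at most 13.9 TPM in TC and at least 23.1 TPM in TM, and in the lower row they do. Of all tested genes 18.9% had TC below TM without overlap.

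Levels of muscle and fibroblast markers differed among the TM samples. TM replicate 3, in which muscle markers summed to 4.10 TPM and fibroblast markers to 89.0 TPM, within the TC range for fibroblasts and below it for muscle, had the highest levels of ATP6V0A1 and TCIRG1. With TM replicates 1 and 2 left out, the log2 difference was -1.10 for ATP6V0A1 and -1.59 for TCIRG1. Only 1 TM sample then remained, so the spread within TM was not measured. This setting was chosen after seeing the data, and the part of muscle, fibroblasts or other host cells in these differences was not tested. The share of TPM from mitochondrially encoded genes, 6.09% to 8.84% in TC and 9.24% to 11.1% in TM, also kept the groups apart. Its part in these differences was not tested beyond leaving those genes out of the total, which gave a log2 difference of -0.97 for ATP6V0A1.

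In the V1 sector 6 of 8 genes had higher means in TC and 2 lower, a split that became 8 and 0 after median-of-ratios rescaling and 3 and 5 with the GC and length trend removed. None was called and all groups overlapped. ATP6V1F and ATP6V1E1, of the rotor and the peripheral stalk, were the most abundant, at 161 to 205 TPM and 98.9 to 126 TPM. ATP6V1G1, the stalk partner of ATP6V1E1, had the most positive value of the sector, with TC at 75.7, 66.5 and 80.4 TPM and TM at 58.7, 63.8 and 67.7 TPM. TC replicate 2 lay below TM replicate 3, and the log2 difference was 0.22 (SE 0.13, limma adjusted p = 0.478).

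The catalytic subunit ATP6V1A and its partner ATP6V1B2 were low next to the stalk subunits, at 9.78 to 16.1 TPM and 21.4 to 29.9 TPM, with log2 differences of -0.09 and -0.20. ATP6V1C1 and ATP6V1H, which govern whether V1 is attached to V0, ranged from 15.7 to 36.5 TPM and from 29.7 to 40.5 TPM, with differences of 0.09 and 0.01. ATP6V1D, the rotor shaft, ranged from 38.4 to 60.1 TPM with a difference of 0.06. The interval for ATP6V1C1, -0.62 to 0.80, was the widest of the sector, so a sizeable difference in either direction could not be seen for this gene with 3 samples a group.

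The balance between pump and hydrolases overlapped between the groups. The mean log2 level of the 14 V-ATPase genes less that of the 15 hydrolases came to 0.18, 0.13 and 0.10 in TC against 0.29, 0.01 and -0.002 in TM. TM replicate 1 was the highest of the 6 and TM replicates 2 and 3 the lowest, with the TC samples between, and the means differed by 0.04. Hydrolase RNA summed to 1402 to 1606 TPM in TC and to 1347 to 1616 TPM in TM.

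Of the MiT/TFE factors, TFE3 (chromosome X, 49028726 to 49043486, − strand, GRCh38) was the most abundant, at 21.9, 21.8 and 20.8 TPM in TC and at 23.8, 25.6 and 27.1 TPM in TM. The TC values were tight and lay below the TM values. The log2 difference of -0.23 (SE 0.14, limma adjusted p = 0.490) did not pass the test. TFEB (chromosome 6, 41683978 to 41736259, − strand), which drives lysosome formation on starvation, stood at 2.50, 3.0 and 3.24 TPM in TC and at 4.64, 3.12 and 4.03 TPM in TM. TC replicate 3 was above TM replicate 2, and the difference was -0.33 (SE 0.23, limma adjusted p = 0.561).

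MITF (chromosome 3, 69739435 to 69968337, + strand), best known from melanocytes, stood at 3.81, 3.86 and 3.61 TPM in TC and at 3.81, 3.64 and 4.08 TPM in TM. The groups covered the same range, the difference was -0.02 with an interval of -0.50 to 0.45, and it changed sign after median-of-ratios rescaling (0.14) and quantile normalization (0.16). These are RNA levels, and the activity of TFEB and TFE3 is set largely by where the proteins are in the cell. TFEC, the remaining gene of the family, was listed at no more than 0.17 TPM.

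The 2 targets of these factors had higher means in TC, and neither difference passed the test. SQSTM1, the autophagy receptor p62 (chromosome 5, 179806398 to 179838078, + strand), stood at 478.2, 512 and 486 TPM in TC and at 362, 477.9 and 416 TPM in TM. It was the member with every TC value above every TM value, though TC replicate 1 and TM replicate 2 differed by less than 1 TPM. The log2 difference was 0.24 (SE 0.13, limma adjusted p = 0.431). GPNMB, a membrane glycoprotein induced by lysosomal stress (chromosome 7, 23235967 to 23275108, + strand), stood at 4.93, 3.46 and 3.24 TPM in TC and at 2.00, 3.40 and 5.91 TPM in TM. TM held both its lowest and its highest value, and the difference of 0.10 had an interval of -0.67 to 0.86.

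**Figure D4:**
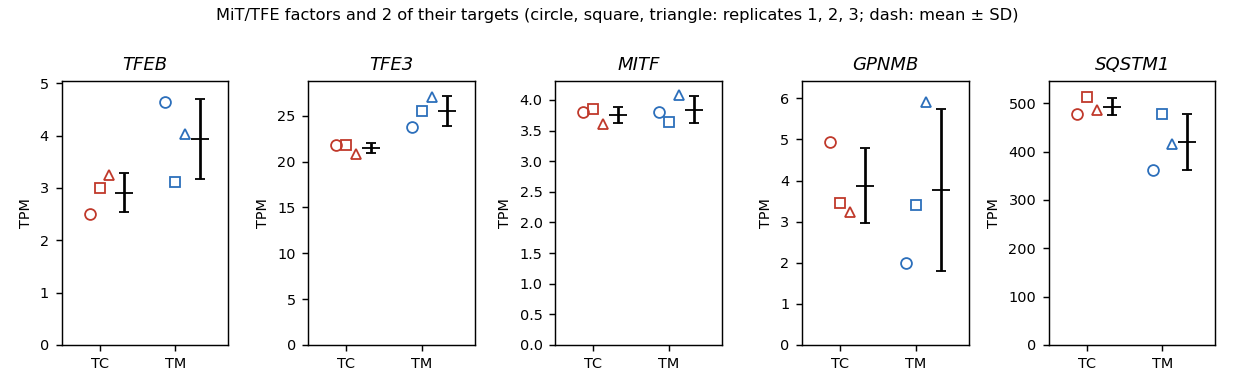
TPM of TFEB, TFE3, MITF, GPNMB and SQSTM1 in TC (red) and TM (blue), each axis starting at 0, with points for the samples and a dash with bars for the mean ± SD (n = 3). TFE3 lies lower in all TC samples (at most 21.9 TPM) than in any TM sample (at least 23.8 TPM), SQSTM1 lies higher, and the other panels overlap.

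The 6 members with TCACGTGA before their start had log2 differences of 0.22 for ATP6V1G1, -0.04 for MCOLN1, -0.04 for CTSA, -0.07 for LAMP1, -0.17 for ATP6V0D1 and -0.24 for GAA. None passed the test, and they fell on both sides of 0. The promoters of the 4 subunit a genes held CACGTG in 0 of 4 windows, a statement about these 300 letters only.

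The wider set of 68 lysosomal genes, of which 58 were tested, lay nearer to all tested genes than the 40 members did. Of the 58, 65.5% were below 0.3 in size, against 60.6% of all tested genes and 87.5% of the members, not matched for level. In TC 17 were higher and 41 lower, a split of 32 and 26 after median-of-ratios rescaling, with a median log2 difference of -0.16 beside -0.14 for all tested genes. None was called, 7 of 58 were lower at an unadjusted p under 0.05 and 0 higher. The shares over all tested genes were 14.2% and 1.93%, so the count of 7 is not a result about this list. The 7 were TCIRG1, ATP6V0A2, CLCN7, IGF2R, TMEM175, NAGPA and HGSNAT.

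CLCN7, the chloride-proton exchanger of the lysosomal membrane, stood at 17.0, 16.6 and 20.8 TPM in TC and at 24.0, 26.0 and 28.5 TPM in TM (log2 difference -0.51, SE 0.16, limma adjusted p = 0.183). TMEM175, a lysosomal channel for potassium and protons, stood at 4.37, 4.59 and 6.70 TPM in TC and at 7.43, 7.81 and 9.32 TPM in TM (log2 difference -0.58, SE 0.23, limma adjusted p = 0.267). IGF2R, the mannose 6-phosphate receptor that brings hydrolases to the lysosome, stood at 36.3, 36.9 and 27.4 TPM in TC and at 42.6, 43.7 and 64.4 TPM in TM (log2 difference -0.56, SE 0.20, limma adjusted p = 0.233). The TC values of these 3 genes, chosen for their small p, lay below TM without overlap, as did 12 of the 58 tested genes of the list and 18.9% of all tested genes. The 6 genes of hydrolase delivery, IGF2R and NAGPA among them, were all lower in TC on the deposited scale, and 3 of them were lower after median-of-ratios rescaling and after quantile normalization.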

How the data were processed

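RNA from 3 TC and 3 TM samples was sequenced, and the authors deposited a matrix of TPM values for 60930 features. The study's methods describe trimming by SeqPrep and Sickle, alignment by HISAT2, assembly by StringTie and quantification by RSEM. The submitters' processing notes name hg38, HISAT2, StringTie and RSEM, and the annotation release is not given in the sources used here. RSEM shares reads between similar transcripts, so levels of genes with pseudogene copies are less certain. TPM keeps no depth, and precision rests on the number of samples. Columns summed to 1000000 TPM in 5 samples and to 994381 in TM replicate 3, and 259 assembled loci were left out. Of the IDs 60401 received a symbol, and positions are those of GENCODE v29 on GRCh38.

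Genes that reached 1 TPM in 3 or more samples were tested on log2(TPM + 1), TC against TM, with limma 3.58.1 in R 4.3.3 (empirical Bayes with a mean-variance trend, two-sided, no covariate, Benjamini-Hochberg adjustment), and called at an adjusted p under 0.05. The authors used DESeq2 on counts, which cannot be run on TPM. The fit was also run on simulated data with independent noise in each gene. Those data held no shift shared within a sample, so the run does not give error rates for these samples. Groups came from the sample titles. In all, 16 alternatives were tried: a pseudocount of 0.1 TPM, no filter, median-of-ratios and quantile scaling, omission of mitochondrial genes, removal of a GC and length trend (a spline with 4 degrees of freedom, 99.36% of tested genes covered), a replicate block with and without it, no variance trend, each replicate left out, and TM replicates 1 and 2 left out together, the last chosen after seeing the data.

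The members, the lists of further lysosomal and marker genes and the tests were chosen with earlier results of these data known. Every member is accounted for. Values in every sample are given for members with an unadjusted p under 0.05 or non-overlapping groups, for TFEB, TFE3, MITF, GPNMB, SQSTM1, LAMP1, LAMP2 and CD68, and for the 5 further lysosomal genes with the smallest p. TPP1, PSAP, NPC2, ATP6V0D1, ATP6V1G1, HEXA and ATP6V0A4 were named in more detail after their values were seen. RefSeq promoters matched 28 of 40 members.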

Additional observations from a re-analysis of the deposited data

How the results depend on the processing

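No member was called under any of the 16 alternatives, and ATP6V0A1 stayed lower in TC at an unadjusted p of at most 0.00554 in each. The count of all genes called, 19, was 7 with a pseudocount of 0.1 TPM, 1 without the filter, 6 after median-of-ratios rescaling, 4 after quantile normalization, 11 with the GC and length trend removed, 12 without the variance trend, 1 to 17 with 1 replicate left out and 195 without TM replicates 1 and 2. Deviations of same-numbered samples correlated at 0.21, -0.12 and -0.16, and not every sample correlated best with its own number. With 3 samples a group this check cannot show whether the replicate numbers pair the samples. With the replicate block 1 gene was called, and with the block and the GC and length trend removed 0. The cause was not tested. In the latter setting 1 member passed an unadjusted p under 0.05 in each direction. The shares of all tested genes were then 10.6% lower and 1.49% higher. Members higher in TC at an unadjusted p under 0.05, 0 on the deposited scale, numbered 4 after median-of-ratios rescaling (LAMP2, ATP6V1G1, SQSTM1 and HEXA). There the share of all tested genes by the same rule also rose, from 1.93% to 6.81%. After quantile normalization 1 member (HEXA) passed, against 5.32% of all tested genes. With the GC and length trend removed 1 member (SQSTM1) passed, against 2.01%, or 1.49% with the block. With a replicate left out the number was 0 to 1, against 1.46% to 2.46% of all tested genes. Members lower by that rule numbered 1 on the deposited scale, against 14.2% of all tested genes. They numbered 2 without the filter (against 9.79%) and without mitochondrial genes (against 16.9%), SGSH being added. With a replicate left out they numbered 1 to 2, against 9.73% to 16.8%. The median of the members, -0.04, became 0.153 after median-of-ratios rescaling and 0.0622 after quantile normalization.

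Differences near 0 changed sign. CD68 became 0.207, 0.0876 and 0.0798 after median-of-ratios rescaling, quantile normalization and removal of the trend (0.0798 also with the block), 0.013 without TM replicates 1 and 2, and np.float64(-0.0382) to np.float64(0.0395) with a replicate left out. LAMP1 became 0.138, 0.00891, 0.091 and 0.0548 under the same settings (0.091 also with the block), and np.float64(-0.132) to np.float64(0.0191) with a replicate left out. MITF became 0.142 and 0.162 after the first and second of these, and np.float64(-0.0548) to np.float64(0.0105) with a replicate left out. GPNMB became -0.519 without TM replicates 1 and 2, and np.float64(-0.193) to np.float64(0.408) with a replicate left out. TCIRG1 became -1.59 without TM replicates 1 and 2, where 1 TM sample remained, and it passed the threshold under no setting with more than 1 TM sample. With TPM of unknown depth and 3 samples a group, log2 differences of the size most members showed could not be told from 0.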

Other observations

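LAPTM5, a lysosomal membrane protein known from leukocytes, stood at 130.3, 127 and 118 TPM in TC replicates 1 to 3 and at 126, 137 and 133 TPM in TM replicates 1 to 3, while the leukocyte marker PTPRC was at 0.03 to 0.30 TPM in the same samples. The levels overlapped between the groups (log2 difference -0.07, limma adjusted p = 0.807). CD63, a tetraspanin of late endosomes and lysosomes, had every TC value (1014, 991 and 1109 TPM) above every TM value (839, 909 and 852 TPM), and the log2 difference was 0.26 (SE 0.11, limma adjusted p = 0.316). Both genes were picked from the list of 68 further lysosomal genes after their values were seen.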
